A study of Homo sapiens with 12 samples.

Results

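Chemokine ligand and receptor genes were examined in Molt-4 and Jurkat, 2 human lines of T-ALL (acute lymphoblastic leukaemia of T cells), cultured with chidamide or left untreated. The genes were all rows of the deposited expression table whose symbol names a chemokine (CCL, CXCL, XCL or CX3CL1) or a conventional chemokine receptor (CCR, CXCR, XCR1 or CX3CR1) with its number. The rule took 61 of 25146 genes, 43 ligands and 18 receptors. Of these, 15 reached an FPKM (fragments mapped to the gene, scaled to transcript length and library total) of 1 in 3 or more of the 12 libraries, 4 ligands and 11 receptors, and were tested. The 4 groups held 3 libraries each: Molt-4 with chidamide at 2 µM, untreated Molt-4, Jurkat with chidamide at 2 µM, and untreated Jurkat. The protocol gives 48 h, whereas the treated libraries are labelled 48, 49 and 50 h for replicates 1, 2 and 3. Whether the untreated cultures received a vehicle, and whether replicates were separate cultures, is not given in the sources used here, so each p-value is set against the spread of these libraries, which may be technical. Each line is an established leukaemia line, so each genetic background is represented by 1 line.

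Chemokines are small secreted proteins, CXCL16 and CX3CL1 being also made as membrane-anchored forms, and they guide leukocytes by binding G protein-coupled receptors on their surface. Developing T cells change their receptors as they mature: CCR9 and CXCR4 mark thymic stages, CCR7 directs naive T cells into lymph nodes, and CCR4, CCR8, CCR10, CXCR3 and CX3CR1 are carried by effector, memory or regulatory subsets. In T-ALL, CXCR4 is known to hold leukaemia cells in the bone marrow and CCR7 to take part in their entry into the central nervous system. Chidamide (tucidinostat) is a benzamide inhibitor of class I histone deacetylases and HDAC10.

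FPKM summed to 698435 to 869059 in a library, and replicates had Pearson correlations of 0.994 to 0.997 over genes after the log2(FPKM + 1) transform. Replicate 3 of untreated Jurkat was the least like its own replicates, and untreated Molt-4 replicate 3 held 10.1% of its FPKM in 7SL RNA against at most 5.35% in the other libraries. All 9 T-lineage markers in the table reached an FPKM of 1 in each group. Their summed FPKM was 693 to 729 in treated Molt-4 against 872 to 950 in untreated Molt-4, and 1198 to 1258 in treated Jurkat against 2073 to 2116 in untreated Jurkat. The 11 monocyte and macrophage markers summed to 95.5 to 101 FPKM in treated Molt-4 against 6.81 to 7.31 in untreated Molt-4, and to 5.90 to 10.0 in treated Jurkat against 2.21 to 4.26 in untreated Jurkat. LYZ, for lysozyme, made up 62.9 FPKM of the treated Molt-4 mean, while CSF1R, CD163, FCGR3A, FCN1 and MPO stayed under 1 in every library. The 6 epithelial markers summed to 277 to 284 FPKM in treated Molt-4 against 108 to 114 in untreated Molt-4, and to at most 2.03 in Jurkat. The 6 B-cell markers summed to 18.9 to 23.8 FPKM in treated Molt-4 against 3.86 to 6.02 in untreated Molt-4, and to 16.2 to 19.1 in treated Jurkat against 35.4 to 43.9 in untreated Jurkat, with MS4A1 and PAX5 under 1 throughout. The 7 NK-cell markers summed to 9.27 to 11.6 FPKM in treated Molt-4 against 3.46 to 4.84 in untreated Molt-4, and to 8.34 to 9.28 in treated Jurkat against 2.40 to 4.13 in untreated Jurkat. The part of these marker changes in the results below was not tested.

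The members are spread over many chromosomes, some in runs of neighbouring genes and others alone. By RefSeq gene order on GRCh38.p14, 19 members are on chromosome 17, 10 on chromosome 3 and 10 on chromosome 4. Of the 10 on chromosome 3, all receptors, 6 were tested. With protein-coding genes ordered by their lower coordinate alone, CXCR6, XCR1, CCR1, CCR3 and CCR2 follow each other there, and CX3CR1 is next to CCR8. Where the neighbouring genes end was not checked, so another gene may still reach between them. Only 3 of the 19 on chromosome 17 were tested, CCR7, CCR10 and CXCL16. The 2 longest runs of CCL genes there, 6 from CCL2 to CCL1 and 7 from CCL16 to CCL4, held no tested member.

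Promoter windows of 4 receptors are given because these receptors span the patterns found: CXCR4, abundant in both lines and higher with chidamide in Jurkat; CCR9, abundant in Molt-4 and near 0 in untreated Jurkat; CX3CR1, higher in Jurkat and listed at 0 in untreated Molt-4; and CCR2, near 0 in both untreated lines. Each window runs from 250 bases before to 50 bases after the start of a RefSeq transcript (GRCh38.p14, the start furthest 5′ in the table), written 5′ to 3′ on the gene's strand at chr2:136118100-136118399 (minus), chr3:45886293-45886592 (plus), chr3:39281686-39281985 (minus) and chr3:46353861-46354160 (plus). Capitals mark matches, on either strand, to TGGGAA (the core bound by RBPJ, the DNA-binding partner of NOTCH), GGGCGG (a GC box) and TATAAA (the TATA box). The E-box bound by MYC, CACGTG, was also searched and had no match in these 4 windows.
CXCR4: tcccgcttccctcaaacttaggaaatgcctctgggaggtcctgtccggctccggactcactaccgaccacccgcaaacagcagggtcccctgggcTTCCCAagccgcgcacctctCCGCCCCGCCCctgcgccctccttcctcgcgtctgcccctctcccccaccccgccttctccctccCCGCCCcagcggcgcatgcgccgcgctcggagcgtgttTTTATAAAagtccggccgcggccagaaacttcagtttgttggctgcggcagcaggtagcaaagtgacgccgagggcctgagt
CCR9: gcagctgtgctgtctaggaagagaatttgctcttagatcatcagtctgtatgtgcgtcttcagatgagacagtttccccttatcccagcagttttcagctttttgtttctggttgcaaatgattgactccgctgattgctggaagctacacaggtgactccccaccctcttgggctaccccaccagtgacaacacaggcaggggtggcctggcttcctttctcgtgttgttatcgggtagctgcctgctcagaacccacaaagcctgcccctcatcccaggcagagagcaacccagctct
CX3CR1: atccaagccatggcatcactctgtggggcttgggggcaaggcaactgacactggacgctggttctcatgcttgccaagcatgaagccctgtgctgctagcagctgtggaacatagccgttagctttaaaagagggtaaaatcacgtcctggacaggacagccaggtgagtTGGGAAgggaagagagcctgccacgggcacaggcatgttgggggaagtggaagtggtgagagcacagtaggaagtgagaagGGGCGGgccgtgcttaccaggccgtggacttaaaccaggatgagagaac
CCR2: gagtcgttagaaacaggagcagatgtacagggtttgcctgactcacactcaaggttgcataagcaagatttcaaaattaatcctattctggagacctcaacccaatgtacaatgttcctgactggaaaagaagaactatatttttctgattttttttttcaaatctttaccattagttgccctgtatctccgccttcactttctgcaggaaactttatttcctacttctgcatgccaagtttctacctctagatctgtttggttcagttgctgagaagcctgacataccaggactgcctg

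The CXCR4 window held 27 CpG dinucleotides, with a TGGGAA match 155 bases upstream of the start, GGGCGG at 135, 130 and 70 bases upstream, and TATAAA at 32 and 30 bases upstream. Its first pair of GC boxes overlap each other, as do its TATAAA matches, which are on opposite strands. The windows of CCR9, CX3CR1 and CCR2 held 4, 7 and 2 CpG dinucleotides, against a median of 14 over all 35116 windows of the table. CX3CR1 had TGGGAA at 80 bases upstream and GGGCGG from position 2 of the transcript. The CCR9 and CCR2 windows printed here held none of the letters searched. With other transcript starts included, CXCR4 and CX3CR1 have 3 windows each and CCR9 has 2, and the CCR9 window not printed held TATAAA. Among all windows, 24.0% held TGGGAA, 45.0% GGGCGG, 11.5% TATAAA and 7.26% CACGTG. Of the 10 tested members with a window in the table, 4, 4, 2 and 0 held these motifs in at least 1 window.

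With chidamide, 13 of the 15 tested members were higher and 0 lower in Molt-4, while in Jurkat 11 were higher and 1 lower. Over all 13840 genes tested, 35.4% were called higher and 24.6% lower in Molt-4 (60.0% in either direction), and 30.9% higher and 25.4% lower in Jurkat (56.3%). A call is an adjusted p under 0.05 from limma on log2(FPKM + 1), with Benjamini-Hochberg adjustment over all genes tested. The same 10 members were called higher in both lines, among them CCR2, CCR4, CCR7, CCR9, CCR10, CX3CR1, CXCR1, CXCL12 and CXCL16. The share of all genes called higher in both lines is not given here, so this count cannot be set against it. The median log2 change of the tested members was 1.29 in Molt-4 and 0.99 in Jurkat, beside 0.08 and 0.04 over all genes tested. The members' medians were 0.97 and 0.41 under quantile normalization, and 2.91 and 1.85 with 0.1 in place of 1 added before the logarithm. These counts and medians are descriptions only: 5 tested members, among them CCR2, CXCR1, CXCL12 and CXCL16, reached an FPKM of 1 in no untreated library, so they entered the test through the treated libraries alone and had to differ. The calls and p-values of these 5 members with chidamide are likewise descriptions only. Since the libraries are from bulk cultures, more cells with a transcript and more of it per cell cannot be told apart.

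**Figure D1:**
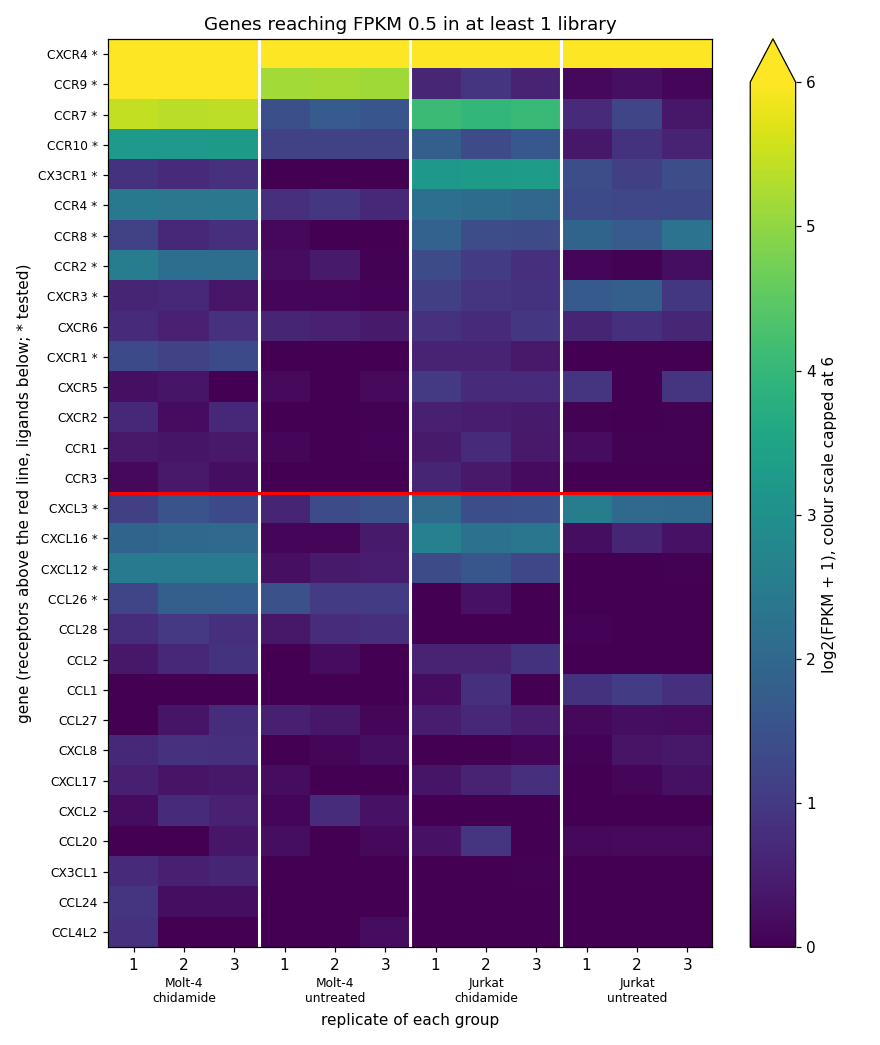
Heat map of log2(FPKM + 1), capped at 6, in the 12 libraries (columns, replicates 1 to 3 of each group) for genes that reached an FPKM of 0.5 in at least 1 library (rows, receptors above the red line and ligands below it, tested members starred). CXCR4 was bright in every library, CCR9 only in Molt-4, and CCR7 in the treated libraries of both lines.

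CXCR4, CCR9 and CCR7, receptors of thymic and lymph node homing, had the highest mean FPKM of all members in treated Molt-4. CCR7, the receptor for CCL19 and CCL21, had 42.52, 40.31 and 41.43 FPKM in treated Molt-4, against 1.76, 2.29 and 2.02 in untreated Molt-4. Treated Jurkat libraries held 15.91, 14.61 and 15.65 FPKM, against 0.67, 1.38 and 0.3 in untreated Jurkat. All treated libraries lay above all untreated ones in each line, and the means differed 20.5-fold and 19.6-fold. The log2 change was 3.81 ± 0.17 (SE) in Molt-4 (adjusted p = 3.06e-09) and 3.24 ± 0.17 in Jurkat (adjusted p = 1.87e-08), which ranked 27 and 38 by size among the 13840 genes. On the log2(FPKM + 1) scale CCR7 had the largest change among the tested members in both comparisons. The ratio of the Molt-4 means was wider for CCR2 (22.9-fold), which started from a lower untreated level.

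CCR9, the receptor for the thymic and intestinal chemokine CCL25, separated the lines before any treatment. It had 81.87, 81.94 and 78.52 FPKM in treated Molt-4, against 34.69, 35.83 and 34.54 in untreated Molt-4. The treated Jurkat values were 0.56, 0.91 and 0.51 FPKM, against 0.1, 0.19 and 0.05 in untreated Jurkat. Treated libraries were above untreated ones without overlap in both lines, but every Jurkat library stayed under an FPKM of 1. The change was 1.18 ± 0.097 on the log2 scale in Molt-4 (adjusted p = 6.2e-07) and 0.57 ± 0.097 in Jurkat (adjusted p = 0.000311). In Jurkat the call was lost under quantile normalization, at 0.05 (adjusted p = 0.683).

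CXCR4, the receptor for CXCL12, had the highest level of all members in each group. Treated Jurkat held 315.11, 306.53 and 313.35 FPKM, against 139.73, 139.96 and 151.76 in untreated Jurkat. In treated Molt-4 it had 103.51, 102.95 and 107.72 FPKM, against 101.58, 93.11 and 98.8 in untreated Molt-4. The groups did not overlap in either line, although the Molt-4 gap was narrow. CXCR4 was 2.17-fold higher in treated Jurkat (log2 change 1.11 ± 0.049, adjusted p = 4.89e-09). In Molt-4 the log2 change was 0.10 ± 0.049, with a 95% interval of -0.01 to 0.21 (adjusted p = 0.104), and it passed under quantile normalization at 0.16 (adjusted p = 0.036) and with replicate 3 of untreated Jurkat left out (adjusted p = 0.0453).

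**Figure D2:**
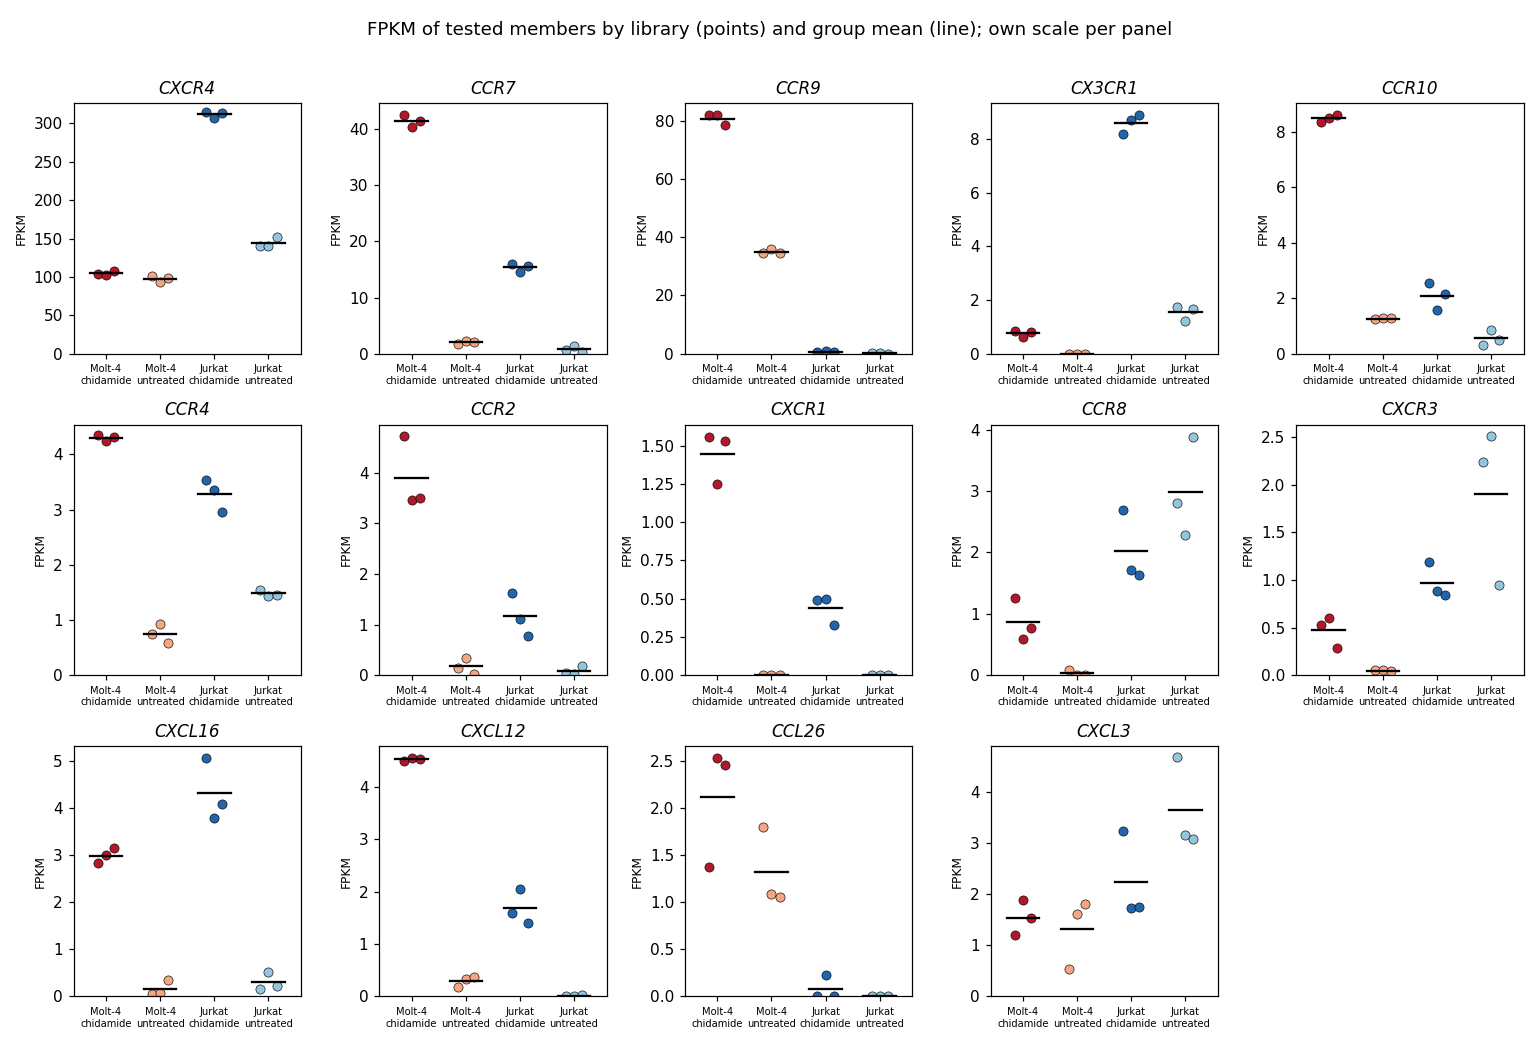
FPKM of tested members, with 1 panel per gene on its own linear scale from 0, 1 point per library and a line at the group mean (n = 3), for the 4 groups side by side. CCR7 sits between 40.31 and 42.52 in treated Molt-4 and at most 2.29 in untreated Molt-4, while CXCR4 is between 93.11 and 315.11 in all libraries.

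Receptors known from monocytes, neutrophils and effector T cells had low levels in untreated cells. CX3CR1, the fractalkine receptor of monocytes and cytotoxic lymphocytes, had 8.18, 8.69 and 8.88 FPKM in treated Jurkat, against 1.73, 1.21 and 1.68 in untreated Jurkat. It had 0.84, 0.64 and 0.81 FPKM in treated Molt-4 and was listed at 0 in the 3 untreated Molt-4 libraries. The groups did not overlap in either line, and no Molt-4 library reached the lowest Jurkat one. The log2 change was 1.92 ± 0.10 in Jurkat (adjusted p = 1.87e-08) and 0.82 ± 0.10 in Molt-4 (adjusted p = 2.1e-05), the second being 0.21 (adjusted p = 0.0631) under quantile normalization.

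CCR2, the CCL2 receptor of monocytes and memory T cells, had 4.72, 3.47 and 3.51 FPKM in treated Molt-4, against 0.14, 0.34 and 0.03 in untreated Molt-4. In treated Jurkat it had 1.63, 1.11 and 0.78 FPKM, against 0.05, 0.03 and 0.17 in untreated Jurkat. No untreated library overlapped a treated one, and the log2 changes were 2.07 ± 0.16 in Molt-4 (adjusted p = 3.22e-07) and 0.99 ± 0.16 in Jurkat (adjusted p = 0.000185). CCR2 entered the test through treated libraries alone, so these p-values are descriptions only.

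CXCR1, the CXCL8 receptor of neutrophils, had 1.56, 1.25 and 1.53 FPKM in treated Molt-4 and 0.49, 0.5 and 0.33 FPKM in treated Jurkat, and was listed at 0 in all 6 untreated libraries. The log2 changes were 1.29 ± 0.088 in Molt-4 (adjusted p = 1.28e-07) and 0.52 ± 0.088 in Jurkat (adjusted p = 0.000289). CXCR1 entered the test through treated Molt-4 alone, so these p-values are descriptions only. The neighbours CCR1, CCR3 and CCR2 on chromosome 3 had no untreated library at or above a treated one in either line, although CCR1 reached at most 0.63 FPKM and CCR3 at most 0.53. CXCR6, at the far end of the same run, overlapped between treated and untreated libraries in both lines, at 0.35 to 0.93 FPKM in all. XCR1, also in this run, overlapped in Molt-4 and was above in every treated Jurkat library, at no more than 0.11 FPKM. The share of all genes without overlap is not given here.

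Receptors of skin-homing and helper T-cell subsets moved unequally. CCR4, the receptor for CCL17 and CCL22, had 4.35, 4.24 and 4.32 FPKM in treated Molt-4, against 0.74, 0.93 and 0.58 in untreated Molt-4. The treated Jurkat values were 3.54, 3.36 and 2.95 FPKM, against 1.55, 1.43 and 1.46 in untreated Jurkat. The treated libraries of the lines came close to each other (means 4.3 ± 0.0569 and 3.28 ± 0.302, SD, n = 3), while the untreated ones lay further apart in proportion (0.75 ± 0.175 and 1.48 ± 0.0624). The log2 changes were 1.60 ± 0.096 in Molt-4 (adjusted p = 4.21e-08) and 0.79 ± 0.096 in Jurkat (adjusted p = 2.38e-05).

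CCR10, the receptor for the skin and mucosal chemokines CCL27 and CCL28, had 8.37, 8.49 and 8.62 FPKM in treated Molt-4, against 1.24, 1.28 and 1.28 in untreated Molt-4. In treated Jurkat it had 2.54, 1.59 and 2.14 FPKM, against 0.31, 0.84 and 0.5 in untreated Jurkat. The groups did not overlap, and the log2 changes were 2.07 ± 0.14 in Molt-4 (adjusted p = 9e-08) and 1.00 ± 0.14 in Jurkat (adjusted p = 5.49e-05). Exons of CCR10 overlap those of CNTNAP1 on the opposite strand in GENCODE v29, and whether reads were counted by strand is not given in the sources used here, so reads of the pair cannot be told apart. CNTNAP1 itself, a neuronal adhesion gene, had 7.41, 7.32 and 7.95 FPKM in treated Molt-4 against 1.64, 0.98 and 2.2 in untreated Molt-4, and 2.81, 4.03 and 3.3 FPKM in treated Jurkat against 0.48, 0.78 and 0.82 in untreated Jurkat.

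CCR8, the CCL1 receptor of regulatory and type 2 helper T cells, went apart in the lines. Treated Molt-4 had 1.25, 0.59 and 0.77 FPKM, against 0.09, 0 and 0 in untreated Molt-4, a log2 change of 0.85 ± 0.18 (adjusted p = 0.00134) that was 0.23 (adjusted p = 0.217) under quantile normalization. Treated Jurkat had 2.7, 1.72 and 1.63 FPKM, against 2.8, 2.29 and 3.89 in untreated Jurkat. The Jurkat groups overlapped, and the log2 change of -0.40 ± 0.18 did not pass (adjusted p = 0.0719), although it did when replicate 1 of treated Jurkat or replicate 2 of untreated Jurkat was left out (adjusted p = 0.0219 and 0.0339) with the replicate block (adjusted p = 0.0489) and under quantile normalization, at -0.78 (adjusted p = 0.00115). CXCR3, the receptor for CXCL9, CXCL10 and CXCL11, had 0.53, 0.6 and 0.28 FPKM in treated Molt-4, against 0.05, 0.05 and 0.04 in untreated Molt-4. Treated Jurkat libraries held 1.19, 0.88 and 0.84 FPKM, against 2.24, 2.51 and 0.95 in untreated Jurkat, where replicate 3 fell among the treated values. CXCR3 was the 1 member called lower, at -0.52 ± 0.19 in Jurkat (adjusted p = 0.0328), and was called higher at 0.48 ± 0.19 in Molt-4 (adjusted p = 0.041). Neither call was stable: the Jurkat one was lost when replicate 2 or 3 of treated Jurkat or replicate 1 or 2 of untreated Jurkat was left out (adjusted p between 0.085 and 0.14), and the Molt-4 one when replicate 1 or 2 of treated Molt-4, any replicate of untreated Molt-4 or replicate 2 or 3 of treated Jurkat was (adjusted p between 0.0505 and 0.118). Under quantile normalization the Molt-4 value was -0.057.

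Among the 4 tested ligands, CXCL12 and CXCL16 were called higher in both lines. Both entered the test through treated libraries alone, so their calls and p-values with chidamide are descriptions only. CXCL12, the stromal ligand of CXCR4, had 4.49, 4.55 and 4.52 FPKM in treated Molt-4, against 0.18, 0.34 and 0.38 in untreated Molt-4. The treated Jurkat values were 1.6, 2.05 and 1.41 FPKM, against 0, 0 and 0.03 in untreated Jurkat. With no overlap between treated and untreated libraries, the log2 changes were 2.09 ± 0.10 in Molt-4 (adjusted p = 8.05e-09) and 1.40 ± 0.10 in Jurkat (adjusted p = 3.26e-07). Of the 8 fibroblast and endothelial markers, the cells best known for CXCL12, COL1A2, DCN, LUM, VWF, CDH5 and KDR stayed under 1 FPKM in every library. COL1A1 averaged 34 FPKM in treated Molt-4 against 0.54 in untreated Molt-4, and 40.8 in treated Jurkat against 1.29 in untreated Jurkat. PECAM1, an adhesion molecule also carried by leukocytes, averaged 30.1 FPKM in treated Molt-4 against 19.1 in untreated Molt-4, and 41.5 in treated Jurkat against 78.9 in untreated Jurkat. CXCL16, the transmembrane ligand of CXCR6, had 2.83, 3 and 3.15 FPKM in treated Molt-4, against 0.06, 0.07 and 0.36 in untreated Molt-4. In treated Jurkat it had 5.07, 3.79 and 4.09 FPKM, against 0.16, 0.53 and 0.23 in untreated Jurkat. All treated libraries were above all untreated ones, by 1.79 ± 0.14 in Molt-4 (adjusted p = 3.95e-07) and 2.03 ± 0.14 in Jurkat (adjusted p = 1.8e-07) on the log2 scale. Exons of CXCL16 overlap those of MED11 on the opposite strand, and MED11, a Mediator subunit, was not called in either line (log2 change -0.19 in Molt-4, adjusted p = 0.239, and -0.06 in Jurkat, adjusted p = 0.735).

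CCL26, an eosinophil-attracting ligand of CCR3, had 1.37, 2.53 and 2.45 FPKM in treated Molt-4, against 1.8, 1.09 and 1.06 in untreated Molt-4. The groups overlapped, and the call at 0.42 ± 0.17 (adjusted p = 0.0458) was lost in 16 of the alternative settings, among them leaving out replicate 2 or 3 of treated or of untreated Molt-4, replicate 1 or 3 of treated Jurkat or any replicate of untreated Jurkat (adjusted p between 0.0545 and 0.159). In Jurkat 1 treated library held 0.23 FPKM and the other 5 were listed at 0. CXCL3, a neutrophil-attracting ligand whose sequence is close to those of CXCL1 and CXCL2, so that its value is uncertain, had 3.24, 1.73 and 1.74 FPKM in treated Jurkat, against 4.69, 3.16 and 3.08 in untreated Jurkat. It had 1.21, 1.88 and 1.54 FPKM in treated Molt-4, against 0.53, 1.62 and 1.8 in untreated Molt-4. Its groups overlapped in both lines and it passed in neither (log2 change -0.54 ± 0.24, adjusted p = 0.0794, in Jurkat, and 0.18 ± 0.24, adjusted p = 0.556, in Molt-4). The Jurkat value passed without replicate 1 of treated Jurkat (adjusted p = 0.025) or replicate 1 of untreated Molt-4 (adjusted p = 0.0332), and under quantile normalization, at -0.86 (adjusted p = 0.00955).

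**Figure D3:**
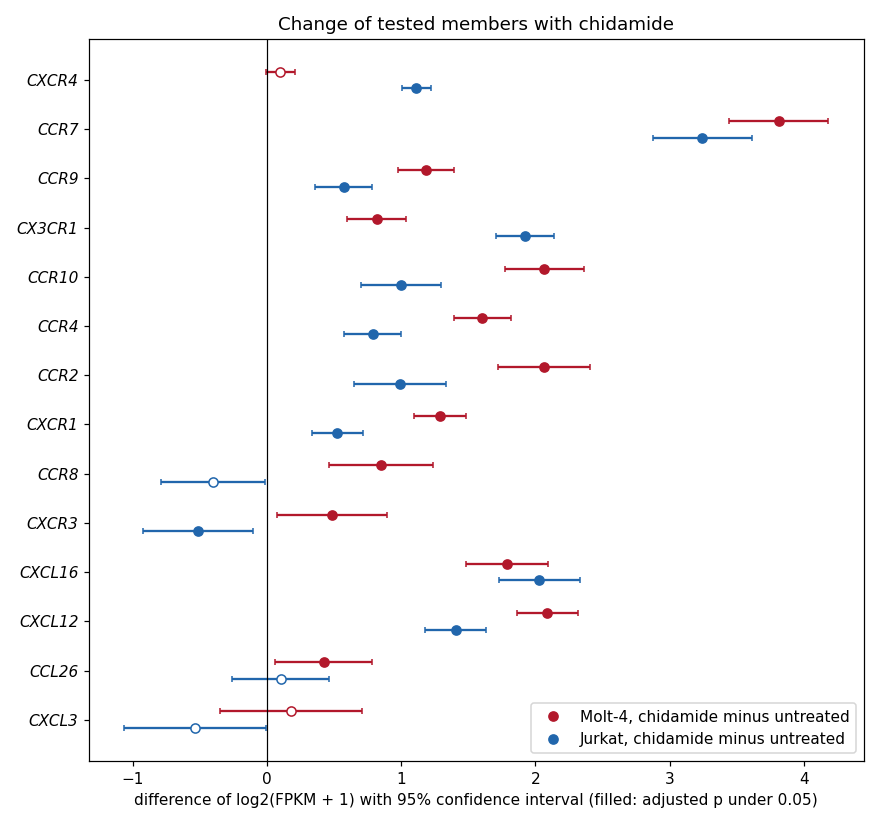
Difference of log2(FPKM + 1), chidamide minus untreated, of tested members, with 95% intervals from limma, for Molt-4 and Jurkat; filled points passed an adjusted p of 0.05. CCR7 is farthest to the right in both lines (3.81 and 3.24), and CXCR3 lies on opposite sides of 0 (0.48 and -0.52).

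Most of the family was not expressed at a level that could be tested. Of the 46 members that missed the filter, 11 were listed at 0 in all 12 libraries (CCL7, CCL11, CCL14, CCL15, CCL16, CCL19, CCL21, CCL23, CXCL5, CXCL6 and CXCL14), 19 were above 0 without reaching 0.5 FPKM, and 16 reached 0.5 FPKM in at least 1 library. CCL19 and CCL21, the ligands of CCR7, are thus among those listed at 0, and CCL25, the ligand of CCR9, stayed under 0.5. The members closest inside the filter were CXCR1 and CXCR3, with 3 libraries at an FPKM of 1 each. Closest outside were CCL1 and CXCR5, with 1 library each and maxima of 1.1 and 1.04 FPKM.

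Several of the low members differed in level between treated and untreated libraries. CCL2, a monocyte attractant and ligand of CCR2, had 0.3, 0.58 and 0.83 FPKM in treated Molt-4 against 0, 0.15 and 0 in untreated Molt-4, and 0.51, 0.51 and 0.85 FPKM in treated Jurkat against 0 in the 3 untreated libraries. CX3CL1, the ligand of CX3CR1, had 0.64, 0.45 and 0.53 FPKM in treated Molt-4 and was listed at 0 in untreated Molt-4, and at most 0.02 FPKM in any Jurkat library. CXCL8, the neutrophil attractant interleukin 8, had 0.61, 0.81 and 0.78 FPKM in treated Molt-4 against 0, 0.05 and 0.17 in untreated Molt-4. In treated Jurkat it had 0, 0 and 0.08 FPKM against 0.04, 0.24 and 0.3 in untreated Jurkat, where the groups overlapped. These levels are low in every library. The groups did not overlap for CCL2 in either line, nor for CX3CL1 and CXCL8 in Molt-4.

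CCL1, the ligand of CCR8, had 0.15, 0.74 and 0 FPKM in treated Jurkat against 0.84, 1.1 and 0.78 in untreated Jurkat, and was listed at 0 in every Molt-4 library. With no filter on low values 50 members were tested, of which 20 were called higher and 0 lower in Molt-4, and 18 higher and 2 lower in Jurkat, CCL1 and CXCR3 being the 2. Of all 20104 genes above 0, this fit called 30.5% higher and 16.7% lower in Molt-4, and 25.1% higher and 17.1% lower in Jurkat. Genes with near-identical copies (CCL3 and CCL3L3, CCL4 and CCL4L2, XCL1 and XCL2) were low throughout, and how their reads were shared out is uncertain.

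The responses of the lines differed in a direct test for 10 of the 15 tested members, 8 with the higher change in Molt-4 and 2 with the higher change in Jurkat. Over all genes tested, 19.8% were called higher and 12.1% lower (31.9% in either direction) in this difference of log2 changes, Molt-4 minus Jurkat. CX3CR1 (-1.10 ± 0.14, adjusted p = 0.000107) and CXCR4 (-1.01 ± 0.069, adjusted p = 7.66e-07) had the higher change in Jurkat. CCR8 (1.25 ± 0.25, adjusted p = 0.00251), CCR2 (1.08 ± 0.22, adjusted p = 0.00289) and CCR10 (1.07 ± 0.19, adjusted p = 0.0012) had the widest differences the other way. The difference did not pass for CCR7 (0.57 ± 0.24, 95% interval 0.05 to 1.09, adjusted p = 0.0919) or CXCL16 (-0.24 ± 0.20, 95% interval -0.67 to 0.19, adjusted p = 0.392). Leaving out replicate 3 of untreated Jurkat brought CCR7 past the threshold (0.78, adjusted p = 0.00669).

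Where a line starts near 0 this difference depends on the pseudocount, the constant added before the logarithm. With 0.1 in place of 1, 4 members were called with the higher change in Molt-4 and 1 with the higher change in Jurkat. CXCR4, CCR4, CXCR1, CCR8 and CXCR3 were called with either constant. CXCR1 reached an FPKM of 1 only in treated Molt-4, so it entered the test through that group and its difference is a description only. CCR9 reached it only in Molt-4 libraries, and CX3CR1 and CXCR3 only in Jurkat libraries. Their differences, and the counts of differences that include them, are therefore descriptions only as well. CX3CR1 went to 0.68 (adjusted p = 0.0693), CCR9 to -0.65 (adjusted p = 0.165) and CXCL12 to -0.45 (adjusted p = 0.357), each with the opposite sign. CCR7 went to -0.034 (adjusted p = 0.965), near the equal ratios of its means, while CCR10 (0.84, adjusted p = 0.113) and CCR2 (1.23, adjusted p = 0.157) kept their direction and did not pass. With the constant of 1, the difference for CXCR1 was also lost under quantile normalization (0.33, adjusted p = 0.0586), and that for CCR9 when FPKM outside 7SL RNA were set to equal totals (0.43, adjusted p = 0.0693).

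**Figure D4:**
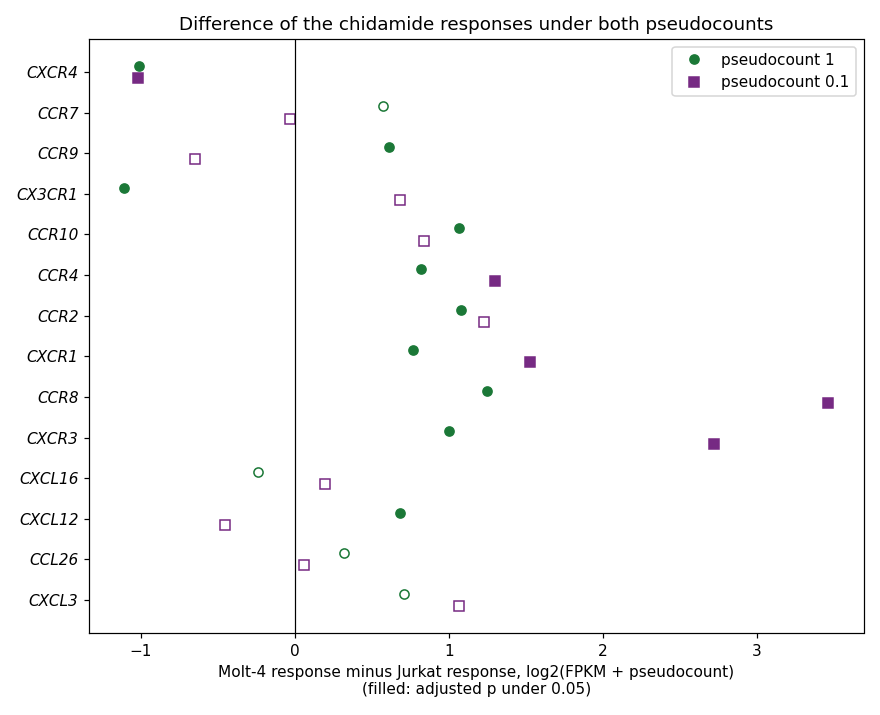
Difference of the log2 changes, Molt-4 minus Jurkat, for tested members with a pseudocount of 1 and of 0.1; filled points passed an adjusted p of 0.05. CXCR4 stays left of 0 with both, whereas CX3CR1 moves across 0 from -1.10 to 0.68 as the constant is lowered.

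Untreated Molt-4 and untreated Jurkat were then compared. Of the 15 tested members, 5 were higher and 6 lower in untreated Molt-4 than in untreated Jurkat, against 27.9% and 37.5% of all genes tested (65.3% in either direction), so that both shares were near those of all genes. CCR9 and CCL26 reached an FPKM of 1 in no Jurkat library, and CX3CR1 and CXCR3 in no Molt-4 library. These members entered the test through the line in which they are high, and the counts and their differences between the lines are descriptions only. CCR9 was the widest difference, at 35 ± 0.705 FPKM in untreated Molt-4 and 0.113 ± 0.0709 FPKM in untreated Jurkat (SD, n = 3; log2 difference 5.02 ± 0.097, adjusted p = 6.21e-13), and ranked 59 by size of all genes tested. CCL26 (1.20 ± 0.17, adjusted p = 4.5e-05), CCR7 (0.80 ± 0.17, adjusted p = 0.0012), CCR10 (0.56 ± 0.14, adjusted p = 0.00297) and CXCL12 (0.36 ± 0.10, adjusted p = 0.00852) were also higher in Molt-4. Lower in Molt-4 were CCR8 (-1.94 ± 0.18, adjusted p = 1.08e-06), CXCR3 (-1.42 ± 0.19, adjusted p = 2.69e-05), CX3CR1 (-1.34 ± 0.10, adjusted p = 1.73e-07), CXCL3 (-1.04 ± 0.24, adjusted p = 0.00248), CXCR4 (-0.55 ± 0.049, adjusted p = 8.46e-07) and CCR4 (-0.51 ± 0.096, adjusted p = 0.000556).

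Genes that act around the receptors were taken from fixed lists, whose counts stand beside 35.4% higher and 24.6% lower over all genes tested in Molt-4, and 30.9% and 25.4% in Jurkat. The list of atypical and decoy receptors, several of which bind chemokines without the usual G protein signal, had 6 genes in the table and 4 tested. Of these, 4 rose in Molt-4 and 2 rose in Jurkat, with 0 lower in either and median log2 changes of 1.92 and 0.28. The medians were 1.43 and 0.13 under quantile normalization, with 1 gene higher and 1 lower in Jurkat, and 3.35 and 1.43 with 0.1 in place of 1 added before the logarithm. ACKR1 and ACKR2 reached an FPKM of 1 only in treated Molt-4, so they entered the test through that group and had to be higher there. The counts, medians and p-values that include them are descriptions only. CCRL2, which presents chemerin to other cells, had 18.08, 19.6 and 19.98 FPKM in treated Molt-4 against 1.18, 1.3 and 1.41 in untreated Molt-4 (log2 change 3.14 ± 0.12, adjusted p = 9.43e-10). Treated Jurkat libraries held 5.07, 3.8 and 3.36 FPKM against 1.07, 1.02 and 0.85 in untreated Jurkat (1.35 ± 0.12, adjusted p = 1.52e-06). ACKR2, a scavenger of inflammatory chemokines, changed by 2.00 ± 0.12 in Molt-4 (adjusted p = 3.37e-08) and by 0.42 ± 0.12 in Jurkat (adjusted p = 0.0087), the second lost under quantile normalization. ACKR3, the second receptor for CXCL12, had 3.56, 5.06 and 4.8 FPKM in treated Molt-4 against 0.61, 0.33 and 0.62 in untreated Molt-4 (1.84 ± 0.23, adjusted p = 2.81e-05). In Jurkat it had 0.77, 1.77 and 0.75 FPKM with chidamide against 1.32, 1.53 and 3.23 untreated, overlapping groups with no call (-0.51 ± 0.23, adjusted p = 0.0831). ACKR1, the Duffy receptor that binds many chemokines, changed by 0.82 ± 0.12 in Molt-4 (adjusted p = 0.00011), a call lost under quantile normalization.

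Of 12 tested G proteins and proximal effectors, 6 rose and 0 fell in Molt-4, while 5 rose and 3 fell in Jurkat, with median log2 changes of 0.23 and -0.01, the second being 0.04 under quantile normalization and 0.06 when FPKM outside 7SL RNA were set to equal totals. The share of this list that fell in Jurkat was near that of all genes. PIK3R5, a regulatory subunit of phosphoinositide 3-kinase gamma, rose in both lines (1.99 ± 0.14, adjusted p = 1.29e-07, in Molt-4, and 0.88 ± 0.14, adjusted p = 0.000161, in Jurkat), as did the G protein gamma subunit GNG2 (1.12 ± 0.078 and 1.10 ± 0.078). PLCB2, a phospholipase C, moved in opposite directions (1.02 ± 0.15 in Molt-4, adjusted p = 7.34e-05, and -0.45 ± 0.15 in Jurkat, adjusted p = 0.0201). Of 12 receptor kinases, arrestins and RGS proteins, which end or shorten receptor signals, 7 rose and 3 fell in Molt-4, and 4 rose and 6 fell in Jurkat, with medians of 0.46 and -0.19, the second being -0.09 under quantile normalization and -0.12 under equal totals. The 3 lower in Molt-4 and the 4 higher in Jurkat are shares near those of all genes. RGS16 rose in both (2.38 ± 0.096 in Molt-4 and 0.95 ± 0.096 in Jurkat), GRK5 likewise (0.95 ± 0.085 and 0.73 ± 0.085), and RGS2 rose in Jurkat (1.66 ± 0.17, adjusted p = 4.38e-06).

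All 23 genes of leukocyte migration were tested, and 16 rose and 3 fell in Molt-4, while 11 rose and 5 fell in Jurkat; the list's median log2 change was 0.60 and 0.27. Over all genes tested, 35.4% were higher and 24.6% lower in Molt-4, and 30.9% higher and 25.4% lower in Jurkat, so that the list's share lower in Jurkat was near that of all genes. ITGB7, the integrin beta chain of gut homing, had 29.53, 27.4 and 23 FPKM in treated Molt-4 against 2.55, 2.09 and 1.87 in untreated Molt-4 (3.12 ± 0.13, adjusted p = 1.64e-09). The treated Jurkat values were 13.51, 14.62 and 15.54 FPKM against 2.34, 1.6 and 1.67 in untreated Jurkat (2.45 ± 0.13, adjusted p = 1.88e-08). S1PR1, the sphingosine 1-phosphate receptor by which T cells leave lymphoid organs, rose by 2.90 ± 0.17 in Molt-4 (adjusted p = 4.34e-08) and 2.72 ± 0.17 in Jurkat (adjusted p = 1.07e-07). ELMO1, an activator of RAC, rose in Molt-4 (1.72 ± 0.071, adjusted p = 1.66e-09) and had -0.02 ± 0.071 in Jurkat, and the integrin beta chain ITGB2 fell in Jurkat (-1.32 ± 0.13, adjusted p = 3.6e-06).

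Of 7 tested enzymes that cut chemokines or sulfate their receptors, 6 rose in Molt-4, and 5 rose and 1 fell in Jurkat, with medians of 1.13 and 1.09. Under quantile normalization 4 rose in Molt-4, and the medians were 0.46 and 0.66. MME, 1 of these enzymes, reached an FPKM of 1 in no untreated library, so it entered the test through treated libraries alone. The counts and medians of this list are therefore descriptions only. TPST1, a tyrosine sulfotransferase that acts on chemokine receptors, rose by 1.46 ± 0.12 in Molt-4 (adjusted p = 8.23e-07) and 1.90 ± 0.12 in Jurkat (adjusted p = 1.15e-07). ADAM10, the protease that releases CXCL16 and CX3CL1 from the membrane, rose by 1.17 ± 0.057 and 2.42 ± 0.057. CTSG, cathepsin G, which trims chemokines, had 61.75, 63.63 and 64.23 FPKM in treated Jurkat against 206.9, 220.38 and 424.96 in untreated Jurkat, where it fell (-2.07 ± 0.20, adjusted p = 3.53e-06); in Molt-4 it rose by 1.26 ± 0.20 (adjusted p = 0.000191). Of 4 chemokine or chemokine-like genes with other symbols, only CKLF (chemokine-like factor) was tested. It had 171 ± 4.76 FPKM in treated Molt-4 against 127 ± 13.4 in untreated Molt-4 (SD, n = 3), a log2 change of 0.43 ± 0.073 (adjusted p = 0.000295). In Jurkat its log2 change was -0.21 ± 0.073 (adjusted p = 0.0293), a call lost under quantile normalization and under equal totals.

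**Figure D5:**
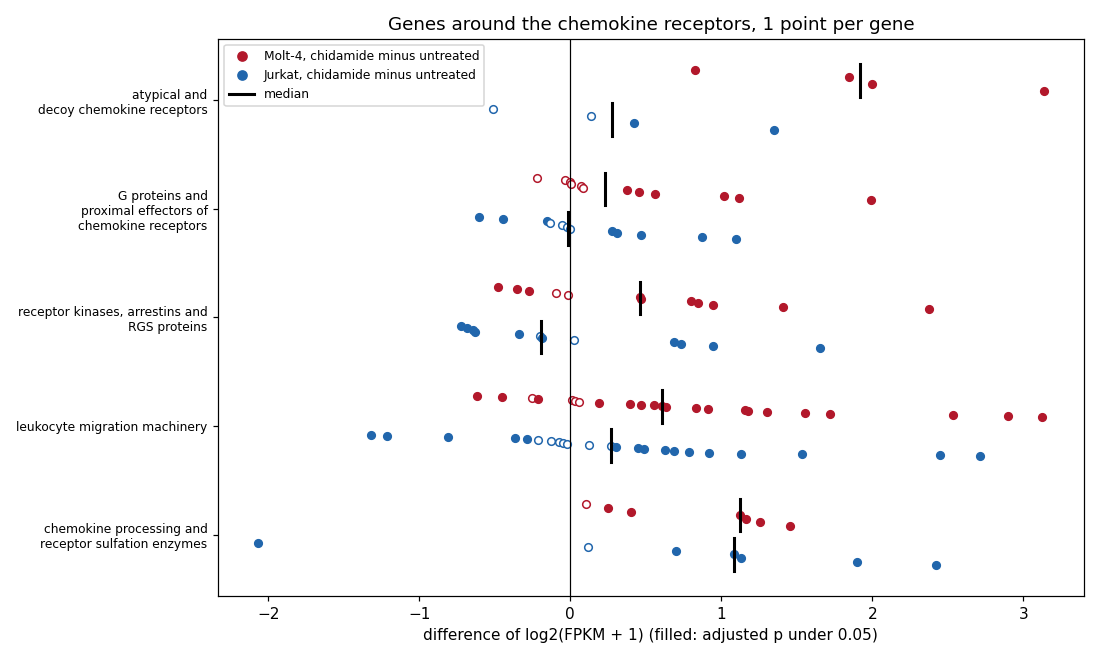
Difference of log2(FPKM + 1), chidamide minus untreated, of each tested gene in 5 lists around the receptors, for Molt-4 and Jurkat; each point is 1 gene, filled where an adjusted p was under 0.05, and the black lines are medians. Leukocyte migration has 16 higher and 3 lower in Molt-4 and 11 higher and 5 lower in Jurkat.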

How the data were processed

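RNA sequencing of 12 libraries was deposited by the authors as 1 table of FPKM per gene symbol, rounded to 2 decimals. Per the submitters' processing notes, STAR, HTSeq and DESeq2 were used with hg19. How FPKM was obtained is not given in the sources used here. The letters J and M of the libraries were taken to mean Jurkat and Molt-4, as the growth protocol has no other line. Low values were checked for whole multiples of the smallest value of each gene. Of 2858 values, 43.1% lay within 0.15 of one with steps estimated per library, against 32.6% with equal steps. The smallest value need not be 1 read, so the check cannot decide whether values are whole reads, and depth is unknown.

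Genes with FPKM of at least 1 in 3 libraries (13840) were fitted on log2(FPKM + 1), a scale that understates changes of low genes, with limma 3.58.1 in R 4.3.3 (4 group means, intensity trend, 8 residual degrees of freedom). P-values were two-sided and Benjamini-Hochberg adjusted over all genes tested. The model was tested on simulated data. Members and lists were chosen with earlier results of these data known. Some genes are not reported here. All other tested members were named. From each list, up to 4 called genes with the largest change in each line could be named. Promoters are from RefSeq (GRCh38.p14), where 45 of 61 members matched. Alternatives were a pseudocount of 0.1, 3 other filters, 3 scalings, only the groups compared, robust empirical Bayes, a replicate block, a 2-fold requirement and each library left out.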

Additional observations from a re-analysis of the deposited data

Results flagged for a closer look

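For 10 of the 15 tested members the response to chidamide differed between the lines in a direct test of the difference, Molt-4 minus Jurkat, on the log2(FPKM + 1) scale (limma, adjusted p under 0.05), beside 31.9% of all genes tested. The change was higher in Jurkat for CX3CR1 (-1.10) and CXCR4 (-1.01). For CCR8 (1.25), CCR2 (1.08), CCR10 (1.07), CXCR3 (1.00), CCR4 (0.82), CXCR1 (0.76), CXCL12 (0.68) and CCR9 (0.61) it was higher in Molt-4. For CCR8 and CXCR3 the values went up in Molt-4 and down in Jurkat, although the Jurkat value of CCR8 did not pass on its own. With a pseudocount of 0.1 the difference changed sign for CX3CR1, CXCL12 and CCR9 and no longer passed for CCR2 and CCR10. The difference for CXCR1 was lost under quantile normalization (0.33, adjusted p = 0.0586), and that for CCR9 under equal totals without 7SL RNA (0.43, adjusted p = 0.0693). CXCR1 reached an FPKM of 1 only in treated Molt-4 and entered the test through that group, so its difference is a description only. The same holds for CCR9, which entered through Molt-4 libraries alone, and for CX3CR1 and CXCR3, which entered through Jurkat libraries alone. The count of 10 includes these members and is a description too.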

How the results depend on the processing

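Of the values of single members under the alternatives, 1067 kept their direction and their side of the threshold, 12 came to pass it, 36 kept their direction but no longer passed, and 11 turned in sign. Some of those that turned in sign also no longer passed and are not among the 36. A required 2-fold change left 6 higher and 0 lower in Jurkat, 3 higher in the difference of responses and 2 higher between untreated lines. A pseudocount of 0.1 gave 0 lower in Jurkat, and 4 higher and 1 lower in the difference. No filter gave 20 higher in Molt-4, and 18 higher and 2 lower in Jurkat. An FPKM of at least 5 left 5 members, of which 4 were higher in Molt-4, 5 higher and 0 lower in Jurkat, 2 higher in the difference, and 3 higher and 2 lower between untreated lines. The count lower in Jurkat was 3 under quantile normalization, 0 with only the groups compared and 2 with the replicate block. Leaving out each library gave 0 to 3 lower and 11 higher in Jurkat, 11 to 13 higher in Molt-4, and 8 to 9 higher and 2 lower in the difference.

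Signs turned with a pseudocount of 0.1 in the difference for CCR7 (-0.034), CCR9 (-0.65), CX3CR1 (0.68), CXCL12 (-0.45) and CXCL16 (0.20). Under quantile normalization they turned in Molt-4 for CCL26 (-0.27), CXCL3 (-0.55) and CXCR3 (-0.057), in the difference for CCL26 (-0.29) and between untreated lines for CCR2 (-0.17). With each library left out in turn, CXCL3 in Molt-4 lay between -0.10 (without replicate 1 of untreated Molt-4) and 0.34. The cause was not tested.

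Quantile normalization moved the median log2 change of all genes by -0.17 in Molt-4 and -0.10 in the difference. It gave 3540 genes higher and 5039 lower in Molt-4, against 4903 and 3401, and 2271 and 2678 in the difference, against 2745 and 1671. Equal totals without 7SL RNA gave 2254 and 2180 in the difference. Replicate numbers did not pair the libraries: deviations of same-numbered libraries correlated at -0.086 to 0.041. With the replicate number as a block, 12 members were higher in Molt-4 and 11 in Jurkat. Without counts, no depth limit can be given for the low members. A fit of only the groups compared was not run for the difference, which uses all groups.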
